A study of Mus musculus with 20 samples.

Results

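The 9 genes described here make, release or control the making of glucose in the liver: the enzyme genes Pck1, Pck2, Fbp1, Mdh1, G6pc and G6pc3, the transporter gene Slc37a4, and the regulators Crtc2 and Creb3l3. They were taken by name from a table of 26830 genes with a count, and all 9 were among the 17573 genes abundant enough to be tested. Messenger RNA (polyadenylated RNA) came from right liver lobes of male fetuses, 20 in all, of the outbred mouse strain CD-1 IGS at embryonic day 18.5, close to term. The control group held 5 litters of control dams and the other group 5 litters of dams under maternal nutrient restriction (MNR), with 2 littermates per litter, and no transgene or deletion is named for either group. The sources used here do not give the degree, start or length of the restriction. The restriction acted on the dam, so the counts of littermates were summed and the litter was the replicate. A litter is named by its group and letter (control A to E, MNR A to E), and control A and MNR A come from different dams.

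Gluconeogenesis builds glucose from lactate, amino acids and glycerol. Most of its steps are those of glycolysis run backwards, and a few irreversible steps need enzymes of their own. Among these enzymes are the PEP carboxykinases (Pck1 in the cytosol, Pck2 in the mitochondrion), fructose bisphosphatase (Fbp1) and glucose phosphatase (G6pc). The last step takes place inside the endoplasmic reticulum, to which the transporter encoded by Slc37a4 carries glucose phosphate. The fetus receives glucose across the placenta, and in rodents the pathway's activity in liver is known to rise around birth. Glucagon acts through cyclic AMP (cAMP), the factor CREB and its coactivator CRTC2 to raise Pck1 and G6pc transcription, and insulin opposes this.

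The promoters of Pck1 and G6pc are among the best studied of liver. Their sequences just before the transcription start, and that of Creb3l3, whose level followed that of Pck1 between litters (below), are printed because the results turn on these genes. The sequences are RefSeq's, on build GRCm38.p6, read 5′ to 3′ on the gene's strand and ending at the base before the start. Pck1 lies at chr2:173152823-173153072 (plus strand), G6pc at chr11:101367466-101367715 (plus strand) and Creb3l3 at chr10:81098873-81099022 (minus strand). Capitals mark matches to the letters searched on both strands.

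Pck1: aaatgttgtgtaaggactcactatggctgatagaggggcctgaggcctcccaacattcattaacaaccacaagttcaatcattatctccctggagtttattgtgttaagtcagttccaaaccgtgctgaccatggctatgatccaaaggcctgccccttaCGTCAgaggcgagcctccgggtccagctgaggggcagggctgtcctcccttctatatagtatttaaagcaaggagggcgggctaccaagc
G6pc: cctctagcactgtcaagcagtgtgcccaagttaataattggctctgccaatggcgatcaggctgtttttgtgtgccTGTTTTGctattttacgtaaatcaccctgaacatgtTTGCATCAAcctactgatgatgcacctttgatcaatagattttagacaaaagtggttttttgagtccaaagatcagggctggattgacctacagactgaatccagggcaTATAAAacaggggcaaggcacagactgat
Creb3l3: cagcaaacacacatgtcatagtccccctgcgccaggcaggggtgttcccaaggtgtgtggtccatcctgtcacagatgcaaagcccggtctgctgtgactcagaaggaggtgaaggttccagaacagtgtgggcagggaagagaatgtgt

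The letters searched were TGACGTCA (the full cAMP response element), TGACG (its core), TGTTTAC (forkhead factors), CAAAACA (the insulin response element), TTGCNNCAA (C/EBP) and TATAAA (the TATA box). The core TGACG lies within the full element, so a match to the full element is also a match to the core. The 250 bases before the start of Pck1 held TGACG on the opposite strand, 90 bases before the start. Those of G6pc held CAAAACA on the opposite strand at 174 bases before the start, TTGCNNCAA at 138 bases and TATAAA at 29 bases. The Creb3l3 stretch printed, from the start RefSeq places farther upstream, held 0 of these motifs. The window before its other start, at chr10:81092592-81092841, held TGACG at 239 bases and CAAAACA at 148 bases before that start. RefSeq gave 11 windows for 8 of the 9 genes, and TGACG was found in 4 of the 11 and in 17.8% of all 32851 promoter windows of the same length. CAAAACA was found in 3 of the 11 windows and in 5.56% of all windows, TTGCNNCAA in 1 and 1.74%, and TATAAA in 2 and 12.4%. TGACGTCA and TGTTTAC were found in 0 of the 11, and in 1.55% and 3.17% of all windows. A match describes the letters only.

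The total count per fetus was 14925778 to 28016953, with a median of 19658940.5. Hepatocyte markers were abundant in every litter (summed level 195900 to 228000 CPM, counts scaled to library size, in control litters and 183600 to 220100 in MNR litters). Erythroid markers, from the blood-forming cells of fetal liver, summed to 35080 to 54390 CPM in control and 35670 to 48520 CPM in MNR litters. Log2 fold changes of MNR over control were negative for all 12 erythroid genes (median -0.105, 0 of 12 past the test). All 6 stellate cell markers were also lower (median -0.276, summed level 387.6 to 507.3 and 377.2 to 467.7 CPM), and all 5 megakaryocyte markers were higher (median 0.246, 201.1 to 250 and 219.9 to 258.9 CPM), again with 0 past the test (edgeR). DESeq2 called 1 stellate gene lower and 1 megakaryocyte gene higher, and limma-voom with the litter as a random effect 2 stellate genes lower. Of 13 hepatocyte gene records 7 had positive values and 0 passed in edgeR, while DESeq2 and limma-voom each called 1 lower. Markers of bile duct (66.18 to 93.2 and 60.09 to 80.27 CPM), macrophage (280.6 to 365.9 and 315.1 to 395.1 CPM) and endothelium (344 to 441.8 and 382 to 416.5 CPM) had 0 genes past the test. Kidney and intestine also express these gluconeogenic genes. Kidney tubule markers summed to 1.12 to 1.477 CPM in control and 1.405 to 2.954 CPM in MNR litters, with Aqp2 at 0 counts and Umod and Slc34a1 at 3 counts each over all 20 fetuses. In exact permutation tests of the summed level over 10 marker lists, p was 0.0159 for kidney tubule and 0.0238 for megakaryocyte (adjusted p 0.119 for both). The 1 kidney tubule gene tested, Lrp2, was called higher by DESeq2 and not by edgeR or limma-voom. Intestine markers summed to 5.747 to 8.466 and 5.463 to 8.302 CPM, with Cdx2 at 7 counts in all. Pancreatic acinar transcripts stood out in 3 fetuses, at 461.8 CPM in fetus 1 of control B, 194.1 CPM in fetus 1 of MNR B and 144.3 CPM in fetus 1 of MNR E, where the next fetus had 64.96 CPM. Over litters these transcripts summed to 14.43 to 222.6 CPM in control and 27.8 to 123.1 CPM in MNR, with Pnlip at 0. The part of these other cell types in the results was not tested, beyond the fits with an erythroid covariate and without these 3 fetuses. In whole liver, fewer cells of a type and less RNA per cell cannot be told apart.

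At this age 1 gene of the pathway was far more abundant than the rest. Levels were compared per kilobase of exon, as CPM per kilobase, mean ± SD over 5 control litters. Fbp1, the bisphosphatase, had 492.7 ± 46.6 and did not overlap with any other of the 9 genes. G6pc, the catalytic subunit of glucose phosphatase, followed with 126.3 ± 47.08, and its range of 72.08 to 195.3 took in that of Mdh1 (96.06 ± 9.297), the cytosolic malate dehydrogenase. Slc37a4 (67.51 ± 8.944), Pck1 (61.22 ± 35.8) and Creb3l3 (52.02 ± 4.926) could not be ordered beyond their spread, since the Pck1 litters ran from 19.66 to 110.2. Pck2 (9.317 ± 0.718), Crtc2 (4.961 ± 0.295) and G6pc3 (2.83 ± 0.207), which encodes the glucose phosphatase found in most tissues, came last and did not overlap with each other or with the genes above them.

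In MNR litters the means fell in the same order apart from Pck1, at 94.78 ± 58.39 CPM per kilobase, whose litters ran from 31.07 to 158.9 and so could not be ordered against G6pc, Mdh1, Slc37a4 or Creb3l3. Within single control litters, the cytosolic enzyme gene Pck1 was 1.93 to 12.2 times its mitochondrial counterpart Pck2 per kilobase, with a median of 5.44. In MNR litters the ratio was 3.26 to 15.6, with a median of 7.75. Liver-type G6pc was 24.5 to 76.9 times G6pc3 in control litters and 30.1 to 73.1 times in MNR litters. Both ratios overlapped between the groups.

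**Figure D1:**
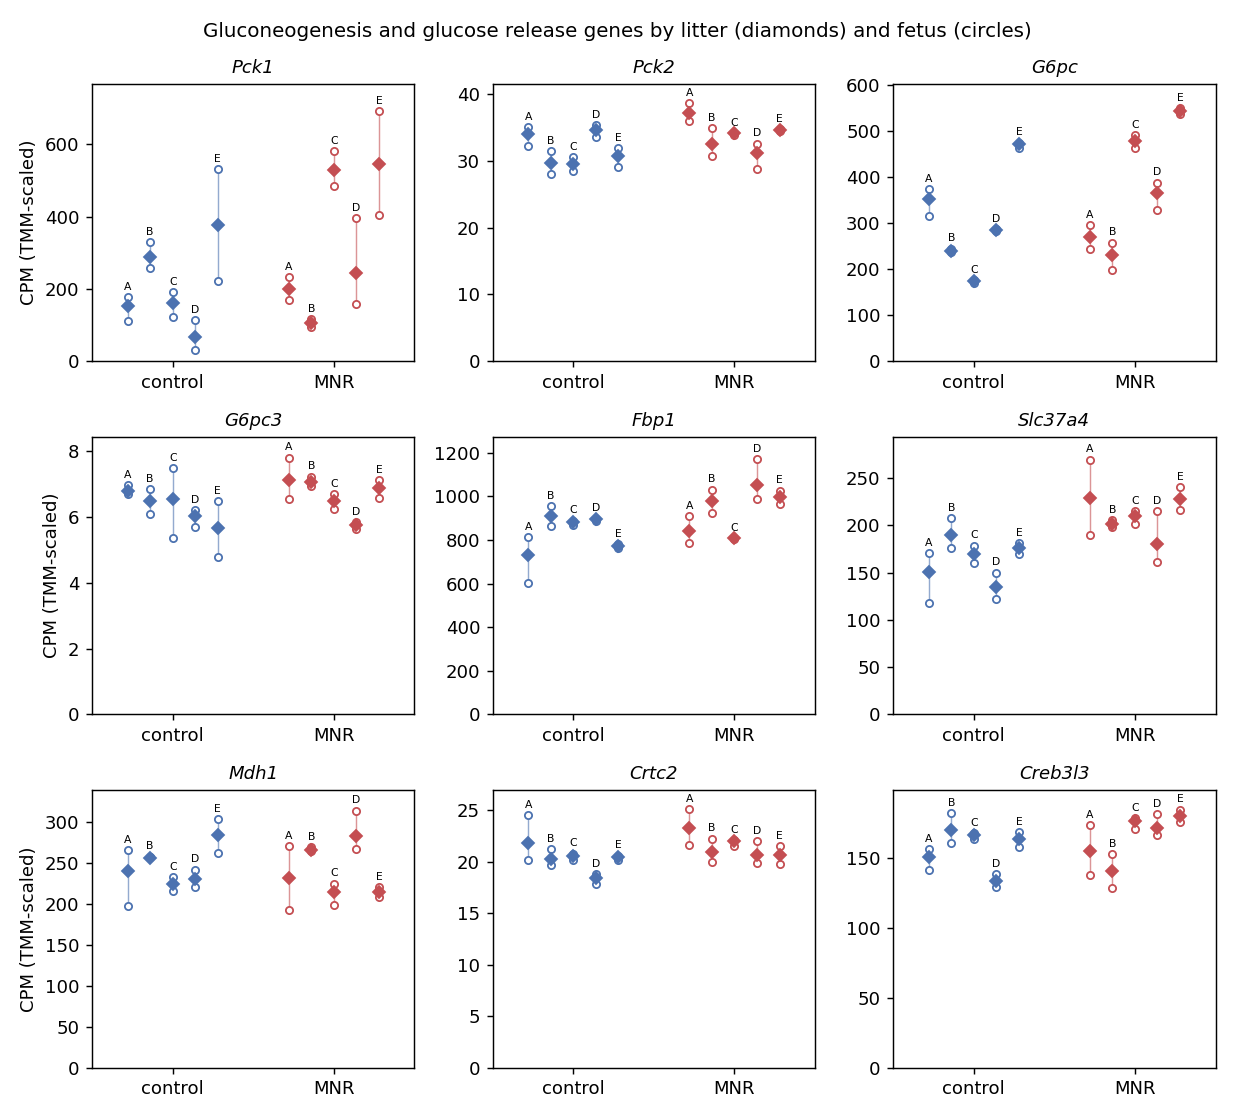
Level of each of the 9 genes (y axis, CPM scaled by TMM, from 0) in control and MNR litters A to E. Diamonds are litter sums and circles the 2 littermates; the litters of the groups overlap for every gene, and Pck1 spreads from 67.42 to 544.7 CPM over litters.

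None of the 9 genes passed the test between MNR and control litters (edgeR's quasi-likelihood test, Benjamini-Hochberg adjusted p under 0.05 over all genes tested). Over all genes 117 passed, which is 0.666%, so 0 of 9 is near the background. At an unadjusted p under 0.05, 1 of the 9 (Slc37a4) and 3452 of all 17573 genes were found. The litters of the groups overlapped for all 9 genes, where 4.5% of all genes had no overlap. The log2 fold change of MNR over control was positive for 8 of the 9 and negative for Mdh1, with a median of 0.0969, beside a median of -0.00271 over all genes and 8676 of 17573 genes positive. DESeq2 on the same litter sums called 1 of the 9, Slc37a4, and 7.49% of all genes. No batch or date is given in the labels, so no comparison within batches was made.

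**Figure D2:**
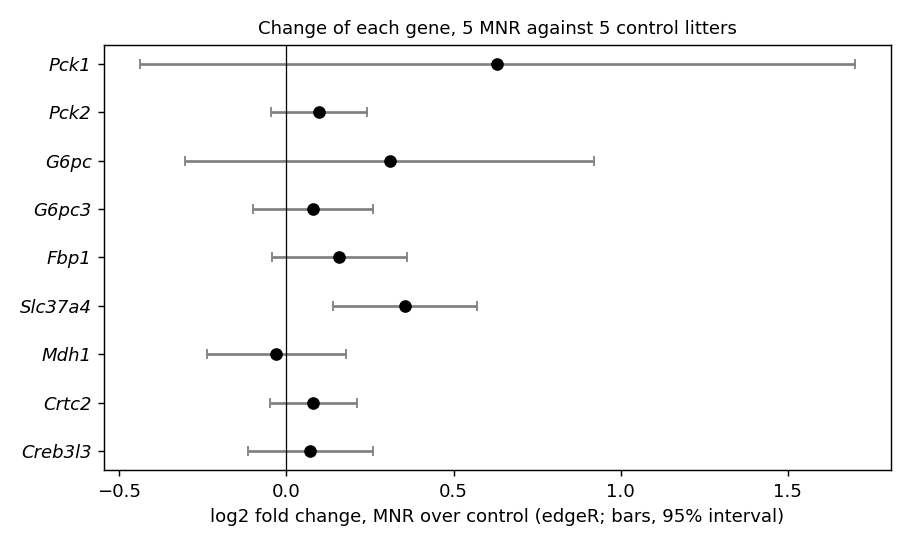
Log2 fold change of MNR over control for the 9 genes (x axis; points from edgeR, bars the 95% interval, 5 litters per group). The interval lies above 0 for Slc37a4 (0.14 to 0.57) and is widest for Pck1 (-0.44 to 1.70).

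Slc37a4, the transporter that brings glucose phosphate to the glucose phosphatase, came closest to the threshold. Its control litters A to E had 150.8, 189.8, 169.3, 134.5 and 176.2 CPM. The MNR litters A to E had 229.3, 201.3, 210.4, 180.4 and 228 CPM. Of the MNR litters 4 of 5 lay above the highest control litter, control B, and the exception was MNR D. The means were 164.1 ± 21.74 and 209.9 ± 20.31 CPM (SD, n = 5 litters each), a log2 fold change of 0.36 (SE 0.099, 95% interval 0.14 to 0.57), or 1.28-fold. The adjusted p was 0.0904 (edgeR) and the exact two-sided permutation p over litters was 0.0159, where 0.00794 is the smallest possible with 5 against 5. This permutation test was run on each of the 9 genes and is not adjusted, and for the other 8 its exact p was 0.127 to 0.698.

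The Slc37a4 call turned on the litters and on the test. Without control B, the litter with the most pancreatic transcripts, the log2 fold change was 0.41 and the adjusted p 0.0387 (edgeR), in a fit that called 4.75% of all genes. Leaving out any other litter gave 0.29 to 0.40 and left Slc37a4 uncalled. Of these fits, those without MNR D and MNR C called 2.89% and 0.17% of all genes, and each of the rest called only 0 to 2 genes. DESeq2 gave an adjusted p of 0.0173, limma-voom with the litter as a random effect (6.74% of all genes called) 0.046, fetuses taken as separate libraries (14.3% called) 0.0124, and fetus 2 of each litter alone (3.08% called) 0.0381. Fetus 1 of each litter alone gave 0.501, in an edgeR fit that called 0 genes (1699 of 16171 had an unadjusted p under 0.05). With the erythroid marker level as a covariate the log2 fold change was 0.28 (SE 0.0595, adjusted p 0.0648, edgeR). Without the 3 fetuses with pancreatic transcripts the log2 fold change was 0.37 and the adjusted p 0.0626. Over fetuses the lowest, median and highest values were 117.8, 170.1 and 207.8 CPM in control and 161.7, 210.2 and 269.5 CPM in MNR livers. Its 2 annotated transcripts took 49.7% and 50.3% of its counts. Reads of sequence they share were counted on 1 of them, so these shares do not measure the amount of each.

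Pck1, whose product commits oxaloacetate to gluconeogenesis, had the largest difference of means among the 9 genes and by far the largest spread. The control litters A to E had 153.6, 289.1, 161.6, 67.42 and 377.8 CPM, and the MNR litters 200.2, 106.6, 530.2, 243.2 and 544.7 CPM. MNR C and MNR E lay above every control litter, while MNR B lay below all control litters but control D. The means were 209.9 ± 122.8 and 325 ± 200.2 CPM, a log2 fold change of 0.63 (SE 0.49, 95% interval -0.44 to 1.70) with an adjusted p of 0.515 (edgeR). The interval thus spans a fall to 0.738-fold and a rise to 3.25-fold. Leaving out MNR E gave 0.36 and leaving out control E gave 0.95, neither past the threshold. With the erythroid marker level as a covariate the value was 0.25 (SE 0.38, adjusted p 0.77, edgeR).

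Single fetuses also spanned a wide range in Pck1. The lowest, the median and the highest fetus had 32.42, 184.8 and 532.2 CPM among 10 control fetuses and 95.74, 314.5 and 691.7 CPM among 10 MNR fetuses. The highest fetus of all, in MNR E, had 21.33 times the level of the lowest, in control D, where the same ratio was 1.38 for Pck2 and 3.22 for G6pc. These levels rest on 945 to 12934 counts per fetus, so the range is far outside counting error. The share of Pck1 counts on the main coding transcript, Pck1-001, stayed between 45.0% and 48.4% in every fetus. Another 43.2% to 47.1% fell on Pck1-003, a transcript annotated with a retained intron. Each read was counted on 1 transcript, also where transcripts share sequence, so these shares do not measure the amount of each transcript.

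G6pc, whose product frees glucose from its phosphate, showed an intermediate spread. The control litters A to E had 352.4, 240.3, 174, 286.6 and 471.5 CPM, and the MNR litters 269.7, 230.2, 479.1, 366.2 and 544.1 CPM. MNR C and MNR E were again above every control litter, and the other 3 MNR litters lay inside the control range. The means were 305 ± 113.6 and 377.9 ± 133.7 CPM, a log2 fold change of 0.31 (SE 0.28, 95% interval -0.30 to 0.92) with an adjusted p of 0.579 (edgeR). Without MNR E the value was 0.14 and without control E it was 0.52, neither past the threshold.

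Differences of the remaining enzymes were small. Fbp1 had 733 to 908.3 CPM in control litters and 810.8 to 1052 CPM in MNR litters, with means of 838.5 ± 79.31 and 936 ± 104 CPM and a log2 fold change of 0.16 (SE 0.093, adjusted p 0.379, edgeR). MNR B, D and E were above every control litter and MNR A and C were not. The 95% interval of -0.04 to 0.36 leaves room for a change of up to 1.29-fold. Pck2, the mitochondrial carboxykinase, had 31.68 ± 2.44 and 33.89 ± 2.26 CPM (log2 fold change 0.10, SE 0.066, adjusted p 0.453, edgeR), and all 5 MNR litters lay above the control median. G6pc3 had 6.30 ± 0.46 and 6.66 ± 0.56 CPM (0.08, SE 0.083, adjusted p 0.634, edgeR). Mdh1, which turns malate carried out of the mitochondrion into oxaloacetate, had 246.6 ± 23.9 and 241.5 ± 31.1 CPM (log2 fold change -0.03, SE 0.096, adjusted p 0.893, edgeR). Its sign turned when control E, MNR C or MNR E was left out. For Pck2, G6pc3 and Mdh1 the 95% intervals lay within -0.24 to 0.26, so larger changes are outside them.

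The regulators did not pass the test either. Crtc2, the coactivator that carries the cAMP signal to CREB, had 20.31 ± 1.21 CPM in control and 21.48 ± 1.14 CPM in MNR litters (log2 fold change 0.08, SE 0.059, adjusted p 0.490, edgeR). Control litters ran from 18.45 to 21.83 CPM and MNR litters from 20.6 to 23.26 CPM, and all 5 MNR litters were above the control median. Creb3l3 encodes CREBH, a membrane-bound factor of the endoplasmic reticulum of hepatocytes that is known to act on gluconeogenic and lipid genes. Its control litters A to E had 150.8, 169.8, 166.5, 133.7 and 163.7 CPM, and its MNR litters 155.1, 141, 176.3, 171.4 and 180.3 CPM. MNR C, D and E lay above every control litter and MNR A and B did not. The log2 fold change was 0.07 (SE 0.086, 95% interval -0.12 to 0.26, adjusted p 0.687, edgeR), and 0.014 (SE 0.063, adjusted p 0.935, edgeR) with the erythroid covariate. CRTC2 is controlled mainly by phosphorylation and CREBH by cleavage, which RNA counts do not measure.

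Where the variation lay differed from gene to gene. The SD between litters of a group, on the log2 scale, was 0.979 for Pck1 and 0.536 for G6pc, and 0.081 (Crtc2) to 0.172 (Slc37a4) for the other 7 genes. Among 11459 genes with a mean of at least 5 CPM, Pck1 stood at percentile 99.7 and G6pc at percentile 98.5 of this SD, and the others between percentiles 17.4 and 72.8. Littermates were close in G6pc, with a median difference of 0.07 on the log2 scale, while litters of a group spanned 1.44 in control and 1.24 in MNR. In control E, for instance, the littermates had 475.4 and 463.8 CPM of G6pc, and in control C 175.9 and 171 CPM. The largest littermate difference in G6pc was 0.37, in MNR B, with 199.2 and 258.2 CPM. Pck1 also differed within litters: the median littermate difference was 0.64 and the largest, in control D, was 1.82, from 32.42 to 114.5 CPM. In control E the littermates alike in G6pc had 532.2 and 220.9 CPM of Pck1. The littermate SD, that of a single fetus, was 0.654 for Pck1 and 0.132 for G6pc. The SD between litters is that of sums of 2 fetuses and still holds part of the littermate spread.

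**Figure D3:**
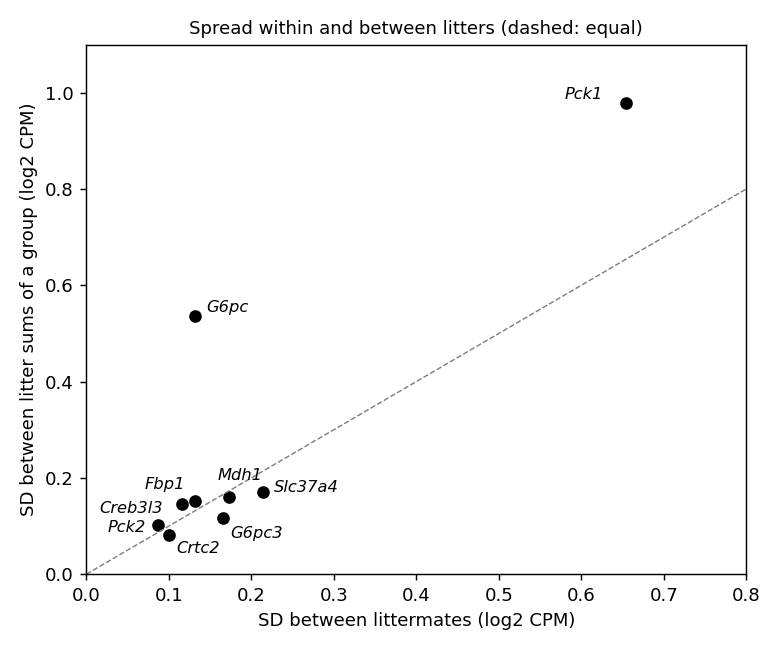
SD between litter sums of a group against SD between littermates for the 9 genes, both in log2 CPM, with a dashed line of equality. Pck1 is high on both axes (0.979 and 0.654), G6pc is high between litters only (0.536 and 0.132), and the other 7 genes lie below 0.22 on both.

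Creb3l3 followed Pck1 from litter to litter. On log2 CPM centred on the group means, over 10 litters, Pearson's r was 0.905 (permutation p 9e-04, adjusted p 0.0072 over 8 pairs) and Spearman's rho 0.867 (permutation p 0.00637, adjusted p 0.051). Without control D and control E, the litters farthest from the median of Pck1, r was 0.897. Uncentred values gave r = 0.911. The ranges were unlike: Creb3l3 spanned 133.7 to 180.3 CPM over the litters in which Pck1 spanned 67.42 to 544.7 CPM. Within litters, the littermate with more Pck1 also had more Creb3l3 in 9 of 10 litters, and MNR C was the exception. All values share the library and its scaling. Control D, the litter lowest in both genes, held the fetus with the most erythroid marker transcripts (fetus 1, 56200 CPM). The correlation was not run with the erythroid covariate, and the part of cell composition in it was not tested.

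The other 7 genes were less like Pck1. Slc37a4 had r = 0.643 (permutation p 0.0642, adjusted p 0.182) and rho = 0.527, and r fell to 0.431 without control D and control E. G6pc had r = 0.639 (permutation p 0.0682, adjusted p 0.182) and rho = 0.636, with r = 0.691 without those litters. Neither passed. Pck2, G6pc3, Fbp1, Mdh1 and Crtc2 had r between -0.265 and 0.265, with adjusted p of at least 0.657. The littermate with more Pck1 had more Pck2 in 1 of 10 litters, more G6pc3 or Crtc2 in 4, and more G6pc, Slc37a4, Fbp1 or Mdh1 in 7. These counts were made after the values were seen and carry no test.

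**Figure D4:**
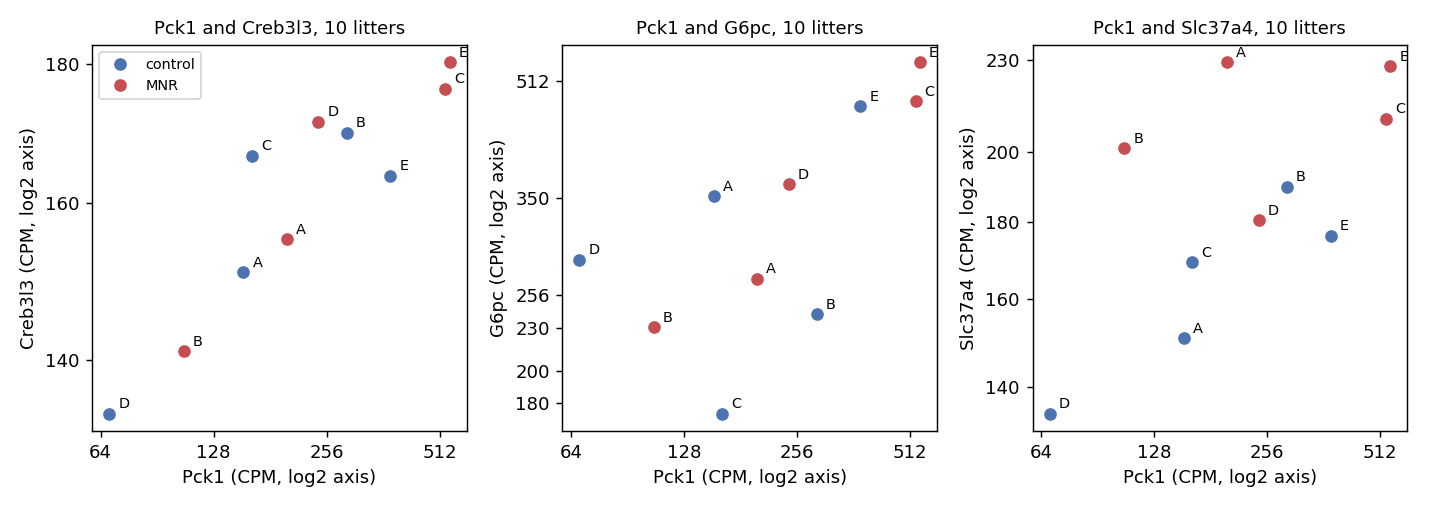
Creb3l3, G6pc and Slc37a4 (y axes) against Pck1 (x axis), in CPM on log2 axes, 1 point per litter with its letter. Creb3l3 and Pck1 are both lowest in control D and highest in MNR E (centred r 0.905), and the G6pc and Slc37a4 points scatter more (0.639 and 0.643).

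Across 10118 named genes with a mean of at least 5 CPM, Creb3l3 ranked 12 in likeness to Pck1 by centred Pearson's r over 10 litters, given as a description. The genes most like Pck1 were Rab20 (0.937), Slc23a2 (0.931), Lrrc20 (0.926), Cpa6 (0.922) and Ankhd1 (0.922). Slc23a2 encodes a vitamin C transporter and Rab20 a small GTPase. The genes most like G6pc were Fam100a (0.936), Pdxdc1 (0.910), Rbks (0.896), Snhg12 (0.893) and Pccb (0.889), of which Rbks encodes ribokinase and Pccb a subunit of propionyl-CoA carboxylase. None of these 10 genes passed the test between groups, Ankhd1 coming nearest (log2 fold change 0.47, adjusted p 0.0587, edgeR). G6pc ranked 647 and Slc37a4 630 in likeness to Pck1, and the other 5 of the 9 genes ranked between 2932 and 7324.

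Genes that bring carbon to the pathway or carry glucose out included 1 that passed the test. Of 18 tested genes 1 was higher, 0 were lower and 13 had positive values, with a median log2 fold change of 0.06. Over all genes edgeR called 0.666%, and 4.5% had no overlap between the groups. The same shares apply to the lists that follow. Gpt, alanine aminotransferase, which turns alanine into pyruvate, had 6.59 ± 2.18 CPM in control and 12.47 ± 0.86 CPM in MNR litters (log2 fold change 0.92, SE 0.18, adjusted p 0.0437, edgeR), with no overlap between the groups (4.607 to 9.99 and 11.62 to 13.89 CPM). Got1, cytosolic aspartate aminotransferase, had 104.6 ± 19.5 and 186.2 ± 55.2 CPM, again with no overlap, and did not pass (0.83, adjusted p 0.0576). Sds, serine dehydratase, had 7.17 ± 1.77 and 10.87 ± 2.17 CPM (0.60, adjusted p 0.0972), and Slc25a11, the mitochondrial carrier of oxoglutarate and malate, 72.03 ± 5.97 and 79.9 ± 5.81 CPM (0.15, adjusted p 0.259). Pyruvate carboxylase (Pcx) had a log2 fold change of 0.17 (adjusted p 0.32, edgeR). The glucose transporter gene Slc2a2, chosen after its values were seen for its place in the pathway, had 0.08 (adjusted p 0.773, edgeR). The muscle-type Fbp2 and the islet-type G6pc2 had 78 and 6 counts over all fetuses and were not tested.

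Of the 9 genes of the shared, reversible steps, all 9 had positive values and 0 passed, with a median of 0.16. With upper-quartile scaling 8 of the 9 were positive. Aldoa had a log2 fold change of 0.47 (adjusted p 0.202), Gpi1 of 0.33 (adjusted p 0.289) and Gapdh of 0.16 (adjusted p 0.481). These enzymes serve glycolysis as well as gluconeogenesis.

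The genes that control glycolysis gave 0 of 14 past the test, with 8 positive and a median of 0.06. Pfkfb3, whose enzyme makes an activator of phosphofructokinase, had 41.4 ± 9.71 and 75.1 ± 20.6 CPM (log2 fold change 0.86, adjusted p 0.0704). Hk2, a hexokinase, had 14.4 ± 2.60 and 23.6 ± 7.13 CPM (0.71, adjusted p 0.0949), and Pfkfb4 6.61 ± 0.71 and 8.02 ± 0.998 CPM (0.28, adjusted p 0.162).

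Hormone and cAMP signalling gave 1 gene higher and 0 lower of 16 tested gene records, with 11 positive and a median of 0.15. The share called over all genes was 0.666%. Sik1, a kinase that cAMP induces and that phosphorylates CRTC2, had 47.51 ± 2.55 CPM in control and 61.49 ± 5.62 CPM in MNR litters (log2 fold change 0.37, SE 0.069, adjusted p 0.0416, edgeR). Its groups did not overlap (43.55 to 50.01 and 52.93 to 66.89 CPM), as for 4.5% of all genes. Its relatives Sik3 (0.35, adjusted p 0.0786) and Sik2 (0.26, adjusted p 0.115) did not pass. Pde4d, a phosphodiesterase that breaks down cAMP, is split over 2 gene records, at 2.82 ± 0.43 against 4.86 ± 1.16 CPM (0.78, adjusted p 0.0569) and 8.29 ± 1.32 against 14.75 ± 4.74 CPM (0.83, adjusted p 0.0618). Neither record overlapped between groups. With the erythroid covariate 0 of the 16 passed, while the log2 fold change of Sik1 lay between 0.33 and 0.39 in all 11 settings tried beside leaving out litters.

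The transcription factors and coactivators of the pathway gave 2 genes higher and 0 lower of 18 tested, with 14 positive and a median of 0.22. Over all genes 0.666% were called. Ppargc1b, a coactivator of mitochondrial and lipid genes, had 5.75 ± 1.16 CPM in control and 14.7 ± 4.36 CPM in MNR litters (log2 fold change 1.35, SE 0.21, adjusted p 0.0263, edgeR). Cebpb, a bZIP factor that acts on Pck1, had 26.43 ± 2.29 and 37.22 ± 3.83 CPM (0.49, SE 0.081, adjusted p 0.0286, edgeR). The groups did not overlap for either gene, as for 4.5% of all genes. Foxo1, a forkhead factor that insulin restrains, had 55.6 ± 5.84 and 75.9 ± 10.6 CPM (0.45, adjusted p 0.0587), and Klf15, a factor of amino acid breakdown, 60.2 ± 10.4 and 89.0 ± 14.2 CPM (0.56, adjusted p 0.0674). Crebbp (0.27, adjusted p 0.0731) and the glucocorticoid receptor Nr3c1 (0.35, adjusted p 0.0806) did not pass either. DESeq2 called 8 of these 18 genes and limma-voom with the litter as a random effect 9, all of them higher in MNR litters. These tests called 7.49% and 6.74% of all genes. The list was chosen with earlier results of these data known, so these counts are a description and no test of the list. With the first fetus of each litter alone 0 of the 18 were called.

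Genes known to be acted on by CREBH gave 0 of 7 past the test, with 5 positive and a median of 0.04. Apoa5, an apolipoprotein of triglyceride clearance, had 147.7 ± 97.7 and 244.7 ± 72.3 CPM (log2 fold change 0.73, SE 0.38, adjusted p 0.31, edgeR). Apoa4 had 9.43 ± 8.14 and 16.3 ± 7.28 CPM (0.79, adjusted p 0.462) and the hormone gene Fgf21 1.53 ± 2.02 and 0.73 ± 0.71 CPM (-1.08, adjusted p 0.511). Apcs, an acute phase protein, had 0.18 (adjusted p 0.727). Cidec had 82 counts in all and was not tested.

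**Figure D5:**
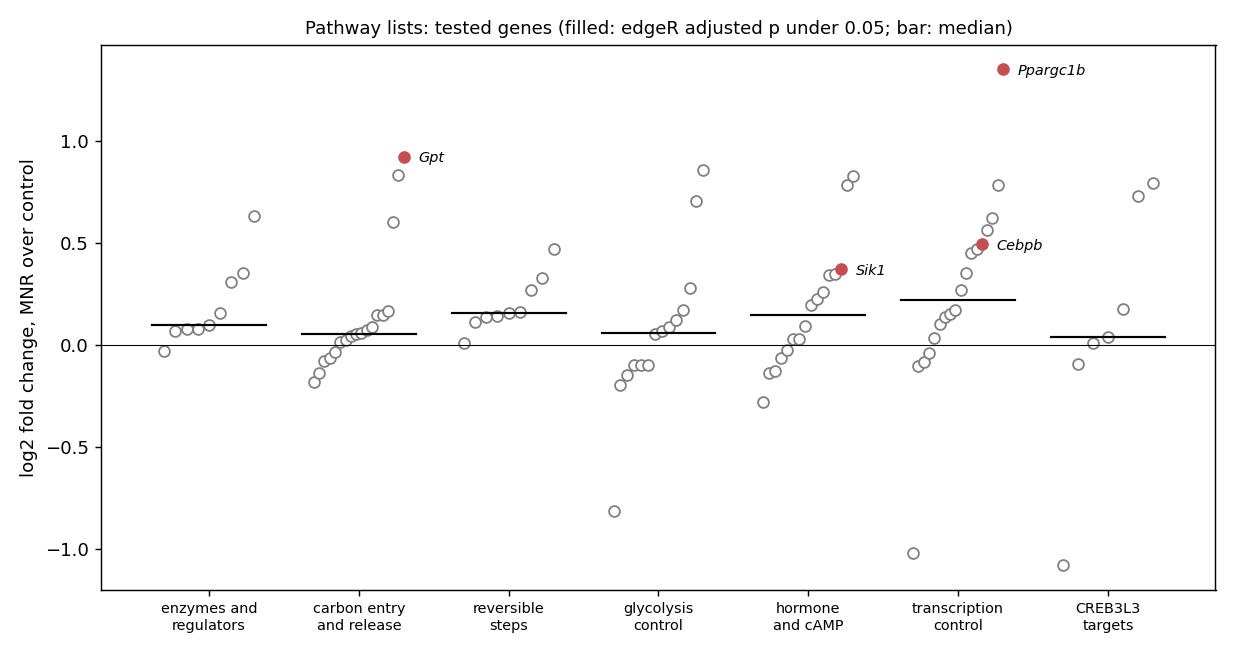
Log2 fold change of MNR over control (y axis) for every tested gene of the 9 described here and of 6 lists of the pathway (x axis), 1 point per gene, with a bar at each median. Filled points passed edgeR's adjusted p of 0.05: Gpt, Sik1, Ppargc1b and Cebpb, and none of the 9.

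The calls of these 4 genes, like those of all genes, moved when a litter was left out. Leaving out 1 litter at a time, Gpt passed in 2 of 10 fits and Sik1, Ppargc1b and Cebpb in 3 of 10, with adjusted p of at most 0.119. The fits in which they passed were those without control B and without MNR D, and for Sik1, Ppargc1b and Cebpb also that without MNR C, which called 4.75%, 2.89% and 0.17% of all genes. Each fit without control A, C, D or E, or without MNR A, B or E, called only 0 to 2 of all genes. A missed call in those fits is therefore not particular to these 4 genes. The direction held in all 11 other settings tried, in which Gpt, Ppargc1b and Cebpb passed in 10 and Sik1 in 8.

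On the mouse build mm9, which the transcript counts use, the 9 genes lie at the following positions. Pck1 lies on chr2:172978549-172984774 (plus strand), Pck2 on chr14:56159103-56168854 (plus strand) and Slc37a4 on chr9:44205182-44211046 (plus strand). G6pc (chr11:101228875-101239217, plus strand), G6pc3 (chr11:102050934-102055395, plus strand) and Mdh1 (chr11:21456790-21472370, minus strand) share a chromosome. Fbp1 lies on chr13:62966113-62989642 (minus strand), Crtc2 on chr3:90058085-90068047 (plus strand) and Creb3l3 on chr10:80547069-80561619 (minus strand). All 9 are protein coding, and values are sums over all exons, untranslated parts included. Exons of Mdh1 share 52 bases with Wdpcp on the opposite strand, which had 479 counts over all fetuses beside 100661 for Mdh1. No other counted transcript matched a member of the set over at least 100 bases at 90% identity.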

How the data were processed

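Polyadenylated RNA of 20 fetal livers was sequenced from libraries of a kit that marks strand, per the labels' protocols. The authors deposited whole-number counts per transcript for each fetus, not normalised. The submitters' processing notes name build mm9 and the tools Bowtie2, FastQC, edgeR and DESeq2; the counting tool, its strand setting and its handling of reads with several matches were not stated in the sources used here. Of 115 pairs of transcripts with identical sequence, the counts differed by about sampling noise (mean squared difference over sum 0.98 in 1835 comparisons, 38 of them equal), so each read was counted on 1 transcript. A deposited gene table was not used: its values equal summed text ranks of the counts for 99.7% of genes.

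Transcript counts were summed to genes with the annotation of that build (NCBIM37, GENCODE M1). Counts that matched no gene were 0.0788% to 0.154% of a fetus and were left out. Counts of littermates were summed and genes kept by filterByExpr at a minimum count of 10. After TMM scaling, edgeR 4.0.16 (R 4.3.3) was run over 5 control and 5 MNR litters, two-sided, with Benjamini-Hochberg adjustment over 17573 genes and a threshold of 0.05. Log2 CPM values use a prior count of 2. Permutation tests of group differences were exact, and those of correlations used 1e+05 permutations. Intervals are 95%. The SD between littermates is that of a single fetus around its litter. Promoter windows hold 250 bases before RefSeq starts.

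Alternatives were other scalings, DESeq2 1.42.0, limma-voom 3.58.1 with the litter as a random effect (correlation 0.294), fetuses as separate libraries, a single fetus per litter, no filter, a block, an erythroid covariate and leaving out each litter. Removal of the 3 fetuses with pancreatic transcripts was chosen after seeing the data. The genes and lists were chosen with earlier results of these data known. Named by rule were the 9 genes, list genes past the threshold plus up to 4 of smallest p, and the 5 genes most like Pck1 and G6pc. Some list genes are not reported here. The edgeR procedure was tested on simulated data.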

Additional observations from a re-analysis of the deposited data

Results flagged for a closer look

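Among 36 groups of litters or fetuses of the 9 genes, 2 held a value set apart from the rest of its group, where chance marks about 1 in 20. The share of 2 in 36 is near that rate. Both concern Crtc2, the CREB coactivator. Fetus 1 of control A had 24.54 CPM, where the next highest control fetus had 21.25 CPM (gap over range 0.492). Fetus 2 of MNR A had 25.07 CPM, where the next highest MNR fetus had 22.23 CPM (gap over range 0.532).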

How the results depend on the processing

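The number of genes past the threshold, 117 (73 higher and 44 lower in MNR), moved with the analysis: 178 with upper-quartile scaling (38.2% of them higher), 1163 with DESeq2, 1088 with limma-voom, 2301 with fetuses taken as separate libraries, 0 with the first fetus of each litter (edgeR; 1699 at an unadjusted p under 0.05), 499 with the second, and 215 without the 3 fetuses with pancreatic transcripts. Leaving out 1 litter at a time gave 0 to 843 genes and 0 to 1 of the 9 described genes. Of these 9, 1 (Slc37a4) was called with DESeq2, limma-voom, separate fetuses and the second fetus only. Slc37a4 ranged from 0.28 to 0.40 on the log2 scale over 11 settings, Pck1 from 0.25 to 0.85 and G6pc from 0.28 to 0.32. Signs turned for Crtc2 with the first fetus only (-0.003645), for Mdh1 when a litter was left out (-0.0933 to 0.0245 over the litters left out, with 0.0099 and 0.0090 without MNR C and MNR E), and for the correlation of Pck1 with Pck2 (0.0429) and with Crtc2 (-0.113) without the 2 litters farthest from the median of Pck1. The cause was not tested. With the length of the most counted transcript the control level per kilobase of Pck1 ranked above that of Slc37a4. Same-lettered control and MNR litters have different dams. Their deviations correlated by -0.00928 to 0.184, inside the range of -0.208 to 0.243 for litters of other letters. With the letter as a replicate block 232 genes and 0 of the 9 were called, and 4 of 10 litters correlated best with their own letter. Whether a letter stands for a shared batch was not tested. Counting error was 0.467% to 3.64% of a litter's value for 8 of the 9 genes. For G6pc3, with 212 to 303 counts per litter, it was 5.74% to 6.87%, close to the litters' coefficient of variation of 7.3% and 8.44%, and for Crtc2 3.17% to 3.64% beside 5.94% and 5.3%, so depth limits both.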
